A study of Mus musculus with 6 samples.

Results

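The genes of the respiratory chain and of ATP synthase were followed in MC3T3-E1 cells, a mouse pre-osteoblastic line, with and without Hsd11b1 overexpression. The members were the protein-coding genes whose symbols begin with Ndufa, Ndufb, Ndufc, Ndufs, Ndufv, Uqcr, Atp5 or Cox followed by 4 to 8, together with Sdha to Sdhd, Cyc1, Cycs and the mitochondrially encoded mt-Nd, mt-Co, mt-Cytb and mt-Atp genes. This rule, which uses names and no measured value, found 100 of 15796 genes, 88 encoded in the nucleus and 12 in mitochondrial DNA. By function, 8 of the nuclear members (the Ndufaf genes) are assembly factors of complex I rather than subunits, and Ndufa4, Ndufa4l2 and Cox7a2l are placed with complex IV.

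Complexes I and II take electrons from NADH and succinate, complex III passes them to cytochrome c, and complex IV (cytochrome c oxidase) hands them to oxygen. Complexes I, III and IV pump protons across the inner mitochondrial membrane, and complex V (ATP synthase) lets them return while it makes ATP. Mitochondrial DNA encodes the hydrophobic cores of complexes I, III, IV and V, while all of complex II and the remaining subunits come from nuclear genes, so that assembly draws on both genomes.

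Both groups held 3 libraries of the same line, and each had received 11-DHC. This abbreviation commonly stands for 11-dehydrocorticosterone, an inactive steroid from which 11β-HSD1, the product of Hsd11b1, makes corticosterone. The GFP libraries came from cells given an EGFP plasmid (genotype label WT) and the Hsd libraries from cells given an Hsd11b1 plasmid (genotype label Hsd11b1 overexpression). The labels name neither the plasmid's promoter nor a clone. Nor do they say that replicates were separate cultures, and the p-values therefore reflect the spread among these libraries alone, which may be technical. In bulk RNA, fewer cells of a type and less RNA per cell cannot be told apart.

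Hsd11b1 had an FPKM (fragments per kilobase of exon, scaled to the library total) of 1.90, 0.404 and 0.275 in GFP 1 to 3 and of 323, 315 and 345 in Hsd 1 to 3. Every Hsd library was above every GFP library (log2 difference 7.57, SE 0.27, limma adjusted p = 1.86e-06), and p was 0.1 by an exact permutation test (two-sided, 20 assignments), which can reach no lower value. Plasmid reads and reads of the endogenous gene were counted together. Library depth, recovered from the FPKM, ran from 16263517 to 58667882 reads, and the 2 deepest, GFP 2 and Hsd 3, lay apart from the others on the second principal component. Of 9 osteoblast lineage markers 7 were listed, with summed FPKM of 3068 to 3389.6 in GFP and 2995 to 3105 in Hsd libraries. Of these 7, Runx2, Dlx5 and Sparc rose and 0 fell. The log2 differences of these called genes were 0.25, 0.33 and 0.33 (limma adjusted p = 0.0442, 0.018 and 0.0383, named after their values were seen). Sp7, Col1a1, Col1a2 and Spp1 had 0.04, -0.28, -0.13 and -0.14 and did not pass (limma adjusted p = 0.821, 0.175, 0.434 and 0.446). The markers Alpl and Bglap were not analysed here.

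Few respiratory chain genes changed. Of the 100 members 99 were tested (limma on log2(FPKM + 1), mean FPKM of 1 or more), and at an adjusted p under 0.05 only Cox6a2 rose, only Cox7a2, Cycs and mt-Nd6 fell, and 95 did not pass. Called members were 4.04% of those tested, against 12.1% of the 13120 genes tested (6.22% higher and 5.84% lower). The differences leaned downward: 78 of 99 were negative, with a median of -0.086 on the log2 scale, against 53.3% negative and a median of -0.013 among all genes. The 3 Hsd libraries all lay below the 3 GFP libraries for 18 members and above them for 2, while 16.1% of all genes tested lay wholly below and 14.7% wholly above. At an unadjusted p under 0.05, 2 members were higher and 17 lower, which is 19.2% of them against 25.6% of all genes.

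The 95% interval of the log2 difference lay within ±0.5 for 82 of the 99 members (82.8%), close to the 81.4% of all genes tested. That held for 80 of the 87 nuclear members tested but for only 2 of the 12 mitochondrial members. The interval lay within ±1 for 94 of the 99 members (94.9%), against 97.8% of all genes, and for 8 of the 12 mitochondrial members. Ndufa4l2, a paralog of Ndufa4 known as a hypoxia-induced gene, had a mean FPKM of 0.654 and was not tested.

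**Figure D1:**
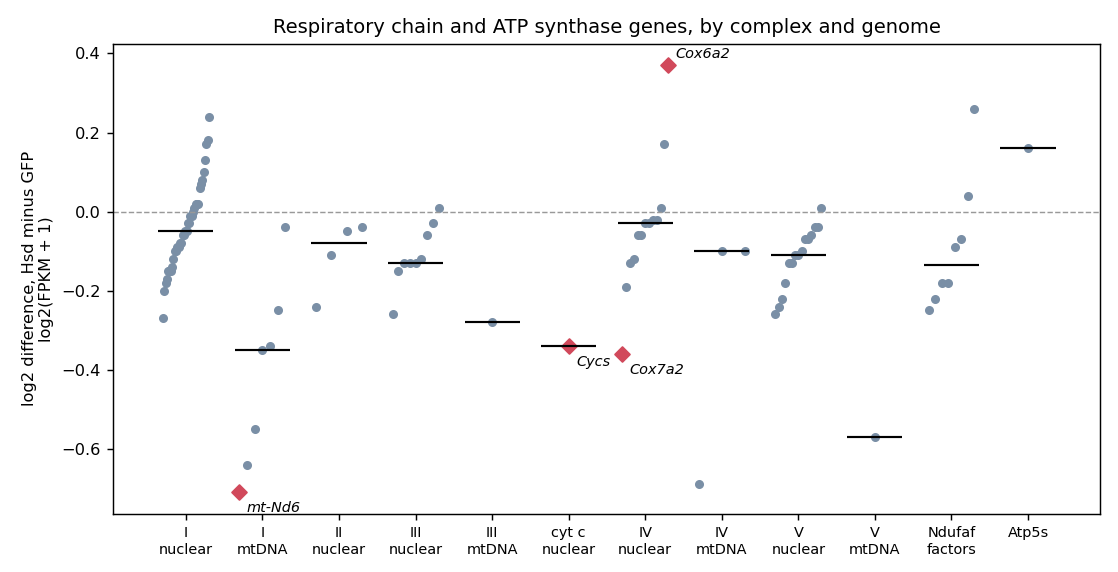
Log2 difference (Hsd minus GFP, log2(FPKM + 1), 3 libraries a group) of the 99 tested members, by complex and by the genome that encodes them. Each point is a gene, black bars are medians, and red diamonds are the 4 genes with a limma adjusted p under 0.05. Nuclear members lie between -0.36 and 0.37, and all 12 mitochondrially encoded members lie below 0.

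Complex I, the NADH dehydrogenase, has 36 nuclear members here, and none passed the test (limma, 0 higher and 1 lower at an unadjusted p under 0.05). Their median log2 difference was -0.051, with a range of -0.27 to 0.24, and 23 of 36 were negative. Levels ran from a mean FPKM of 1.80 for Ndufb2 to 74.7 for Ndufb10, and Ndufb10, Ndufa1 and Ndufa8 had the highest. Ndufb10, a membrane arm subunit, had 80.4, 81.9 and 73.1 in GFP and 65.8, 69.3 and 77.5 in Hsd libraries, and the groups overlapped. Ndufa1 had a mean of 69.8 in both groups (SD 4.73 and 4.55, n = 3). Ndufa8 had 70.2 ± 9.17 in GFP and 62.3 ± 8.02 in Hsd libraries (SD, n = 3).

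The 3 nuclear complex I subunits with the smallest p also stayed short of the threshold. The accessory subunit Ndufa5 had 29.5, 30.0 and 23.7 in GFP against 23.6, 19.4 and 25.2 in Hsd libraries (log2 difference -0.27, limma adjusted p = 0.194). Ndufa3, another accessory subunit, had 41.8, 45.4 and 40.7 against 38.5, 38.8 and 38.5, with every Hsd library lowest (-0.14, limma adjusted p = 0.221). Ndufb11, an X-linked subunit of the membrane arm, pointed the other way, with 26.9, 35.3 and 27.0 against 32.2, 35.4 and 37.4 (0.24, limma adjusted p = 0.225). Ndufv1, the core subunit that binds FMN and takes electrons from NADH, had 41.3, 50.5 and 42.5 in GFP and 40.2, 39.4 and 43.5 in Hsd libraries, so the groups overlapped (-0.12, limma adjusted p = 0.465).

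The 8 Ndufaf assembly factors, which help build complex I and leave it, had 0 higher and 0 lower members (limma, 1 and 3 at an unadjusted p under 0.05). Their levels were low, with mean FPKM of 2.56 to 12.8, and their median difference was -0.135. Ndufaf1, Ndufaf2, Ndufaf4 and Ndufaf7 were lower in every Hsd than in every GFP library, with differences of -0.25, -0.18, -0.22 and -0.18. None of them passed (limma adjusted p = 0.146, 0.238, 0.142 and 0.123). Of all genes tested, 16.1% lay wholly below and 14.7% wholly above, and this set of 8 was not tested against those shares. Ndufaf6 was higher in every Hsd library (5.05, 4.69 and 6.27 against 4.43, 4.33 and 3.98), with a difference of 0.26 (limma adjusted p = 0.136).

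Complex II, succinate dehydrogenase, had 4 members and none passed (limma, 1 lower at an unadjusted p under 0.05), with a median difference of -0.082. Sdha, the FAD-binding subunit that oxidises succinate, had 33.7, 33.9 and 32.2 in GFP and 32.5, 31.6 and 32.7 in Hsd libraries. It was among the steadiest members, with an interval of the difference from -0.18 to 0.09. The iron-sulfur subunit Sdhb had 25 ± 2.57 and 23.0 ± 1.84, and the membrane anchor Sdhc 26.9 ± 3.35 and 25.7 ± 0.893 (SD, n = 3). The other membrane anchor, Sdhd, had 63.9, 65.9 and 59.4 in GFP and 59.1, 49.1 and 52.2 in Hsd libraries. These groups only just failed to overlap, and the difference of -0.24 did not pass (limma adjusted p = 0.112).

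In complex III, the cytochrome bc1 complex, 8 of the 9 nuclear members had negative differences, 0 passed (limma, 1 lower at an unadjusted p under 0.05), and the median was -0.129. Cyc1, cytochrome c1, which hands electrons to cytochrome c, had 75.7, 83.9 and 74.8 in GFP and 72.2, 64.6 and 76.7 in Hsd libraries, so the groups overlapped. The small subunit gene Uqcr11 had the highest level, 80.5 ± 13.4 against 76.5 ± 7.72, and Uqcrfs1, the Rieske iron-sulfur protein, 32.4 ± 1.66 against 29.1 ± 1.99 (SD, n = 3). Uqcrb, known as the ubiquinone-binding protein, had 57.6, 58.6 and 56.7 in GFP and 52.4, 49.0 and 42.9 in Hsd libraries. All 3 Hsd libraries were lower, with a difference of -0.26 (SE 0.08), short of the threshold (limma adjusted p = 0.0770).

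Cytochrome c itself fell. Cycs, which shuttles electrons from complex III to complex IV and activates caspases when it leaves the mitochondrion, had 43.3, 41.4 and 34.3 in GFP and 30.7, 30.8 and 31.1 in Hsd libraries. The Hsd libraries were nearly equal to each other and all below GFP 3, the lowest control. The log2 difference was -0.34 (SE 0.09, 95% interval -0.55 to -0.14, limma adjusted p = 0.0409). The call held in 1 of the 6 fits that leave out a library, that without GFP 3, and the adjusted p in these fits ran from 0.0126 to 0.123.

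Cycs lies on chromosome 6 (50562563 to 50566538, minus strand, GRCm38). It has a near-identical copy, Gm10053, on chromosome 19, with 1 mismatch over 946 aligned bases. Gm10053 was listed at an FPKM of 12.2, 10.7 and 10.8 in GFP and 5.93, 6.55 and 8.21 in Hsd libraries. This listed value was lower in Hsd too (log2 difference -0.64, SE 0.11, limma adjusted p = 0.00647). Most reads from the shared stretch would match both genes equally well. How such reads were assigned is not given in the sources used here, and their part in the values of either gene was not tested. Of the reads of both genes, Cycs held 92.0% to 94.9% in each library. With the reads of both genes summed over the length of Cycs, FPKM were 46.7, 44.4 and 37.3 in GFP against 32.4, 32.7 and 33.4 in Hsd libraries. This sum passed the test (limma adjusted p = 0.0285) and was chosen after the data were seen.

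Complex IV held both directions. Of its 14 nuclear members 13 were tested, of which Cox6a2 rose, Cox7a2 fell and 11 did not pass, with a median of -0.034. Cox7a2, the broadly expressed isoform of subunit 7a, had 53.6, 54.4 and 46.6 in GFP and 38.4, 39.6 and 41.5 in Hsd libraries. Every Hsd library was lower than every GFP library, 0.77 times on the means. The log2 difference was -0.36 (SE 0.08, 95% interval -0.54 to -0.18, limma adjusted p = 0.0180). The call ended without GFP 1, GFP 2, Hsd 1 or Hsd 2 in turn (adjusted p up to 0.0768), and the difference stayed between -0.43 and -0.32. Its relative Cox7a2l, a supercomplex assembly subunit, had 124 ± 12.3 and 118 ± 3.25 (SD, n = 3) and did not pass.

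Cox6a2, the isoform of subunit 6a typical of heart and skeletal muscle, was the only member that rose. It had 2.36, 2.69 and 2.53 in GFP and 3.30, 3.63 and 3.81 in Hsd libraries, which rest on 28 to 64 and 41 to 152 recovered reads. The groups were well apart, with Hsd 1.41 times GFP on the means and a log2 difference of 0.37 (SE 0.08, 95% interval 0.19 to 0.56, limma adjusted p = 0.0170). The call ended without GFP 3, Hsd 2 or Hsd 3 (adjusted p up to 0.0715), and the authors' deposited table gives it an adjusted p of 0.327. The broadly expressed isoform Cox6a1 was far higher, at 231 ± 47.1 and 225 ± 31.8 (SD, n = 3), and did not pass (-0.02, limma adjusted p = 0.952). Of 12 skeletal muscle and heart markers 1 was listed, Tnni2, at 0.191 to 0.536 in GFP and 0.285 to 0.365 in Hsd libraries. In GENCODE M21 Cox6a2 (chromosome 7, 128205435 to 128206387, minus strand) lies inside the locus of Itgad on the other strand. The strand setting of the counting is not given in the sources used here, and what part reads from the other strand have in this value was not tested.

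The most abundant nuclear member of all was Cox8a, the broadly expressed isoform of subunit 8, with 388, 574 and 564 in GFP and 473, 475 and 535 in Hsd libraries. GFP 1 was lowest and GFP 2 highest, so the groups overlapped fully. Cox4i1, the common isoform of subunit 4, had 137 ± 15.1 and 130.4 ± 7.94, and Ndufa4 73.8 ± 4.14 and 72.4 ± 4.69 (SD, n = 3). Cox6b1, which faces the intermembrane space, had 115, 117 and 94.5 against 94.5, 94.8 and 94.4, with the Hsd libraries at the level of GFP 3 (-0.19, limma adjusted p = 0.218). Cox4i2, Cox6b2, Cox7a1, Cox8b and Cox8c, the other isoforms of these subunits, were not analysed here.

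ATP synthase had 15 nuclear members, of which 14 had negative differences and 0 passed (limma, 3 lower at an unadjusted p under 0.05), with a median of -0.106. Atp5b, the catalytic beta subunit, and Atp5a1, the alpha subunit, were the most abundant. Atp5b had 387, 429 and 404 in GFP and 392, 386 and 408 in Hsd libraries (difference -0.04, 95% interval -0.21 to 0.13). Atp5a1 had 204 ± 14.4 and 196 ± 5.59, and Atp5h, of the peripheral stalk, 122 ± 9.03 and 112 ± 6.79 (SD, n = 3). The 3 genes for the identical mature subunit c of the rotor ring, Atp5g1, Atp5g2 and Atp5g3, differed by -0.04, 0.01 and -0.18, and none passed.

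Members close to the threshold included subunits of the stalk that holds the catalytic head. Atp5j, coupling factor 6, had 29.8, 31.1 and 27.3 in GFP and 23.1, 24.2 and 25.6 in Hsd libraries, without overlap (-0.26, SE 0.07, limma adjusted p = 0.0511). Atp5o, the oligomycin sensitivity protein, had 66.1, 72.1 and 65.3 against 55.8, 58.6 and 60.4, also without overlap (-0.22, SE 0.07, limma adjusted p = 0.0815). Both passed when FPKM were rescaled to the sum over nuclear protein-coding genes (limma adjusted p = 0.0247 and 0.0302). Over all 19 alternatives Atp5j passed in 6 and Atp5o in 3, with limma adjusted p up to 0.184 and 0.262. Neither passed in any of the 6 fits that leave out a library. Atp5s, coupling factor B, had 2.17 ± 0.268 and 2.56 ± 0.404 (SD, n = 3) and did not pass.

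**Figure D2:**
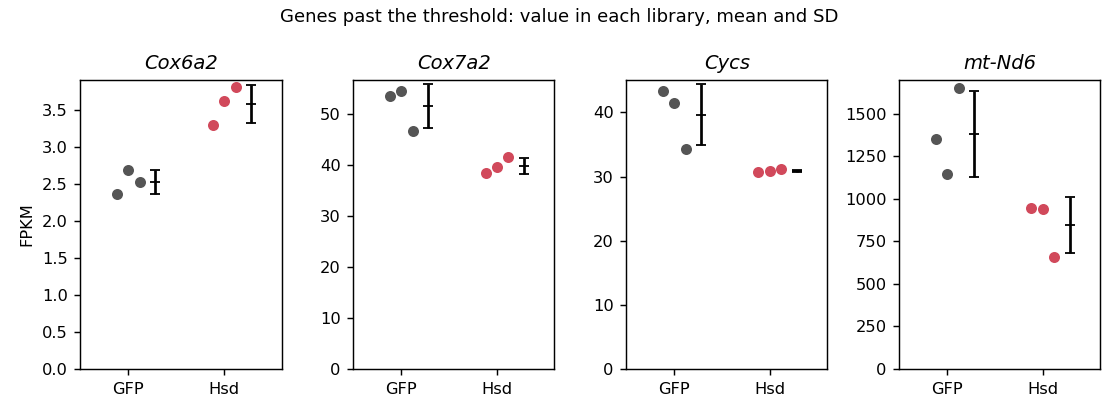
FPKM of the 4 members with a limma adjusted p under 0.05 in each GFP and Hsd library (points, replicates 1 to 3 from left to right), with the mean and SD of 3 libraries beside them. The groups do not overlap for any of the 4, with Cox6a2 higher and Cox7a2, Cycs and mt-Nd6 lower in the Hsd libraries.

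The 12 mitochondrially encoded members were set beside the nuclear copies of mitochondrial DNA, since reads from identical stretches match both places equally well. On chromosome 1 (24611535 to 24616197, minus strand, GRCm38), annotated pseudogenes copy a run of mitochondrial DNA from the end of mt-Co1 to part of mt-Nd4. Gm28661 equals mt-Co2 over 681 bases, Gm10925 equals mt-Atp6 over 678, Gm28437 equals mt-Co3 over 783 and Gm10222 equals mt-Nd4l over 294, each without a mismatch, and Gm28438 differs from mt-Nd3 at 1 of 345 bases. By contrast Gm13340 on chromosome 2 copies all 1545 bases of mt-Co1 with 37 mismatches. Windows of 60 bases show these degrees of likeness, with mismatched bases in capitals (GENCODE M21 transcripts, GRCm38). The pair for mt-Co2 is chrM:7013-7072 (plus strand) and chr1:24615506-24615565 (minus strand), that for mt-Nd3 is chrM:9459-9518 (plus) and chr1:24613060-24613119 (minus), and that for mt-Co1 is chrM:5351-5410 (plus) and chr2:22589565-22589624 (minus).
mt-Co2: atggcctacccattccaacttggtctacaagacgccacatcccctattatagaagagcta
Gm28661: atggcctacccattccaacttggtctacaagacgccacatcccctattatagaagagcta
mt-Nd3: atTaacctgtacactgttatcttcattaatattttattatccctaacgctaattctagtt
Gm28438: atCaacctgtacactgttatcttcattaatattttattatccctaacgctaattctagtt
mt-Co1: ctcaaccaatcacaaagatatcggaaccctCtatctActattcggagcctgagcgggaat
Gm13340: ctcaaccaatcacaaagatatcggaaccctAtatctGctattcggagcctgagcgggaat

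Members with and without a full copy (at least 90% of windows found elsewhere) stood at different levels. In mt-Co2, mt-Atp6, mt-Co3, mt-Nd3 and mt-Nd4l, 97.6% to 99.9% of all 100-base windows recur in another annotated transcript, and their mean FPKM were 2.36 to 49.2. In the other 7 members 0% to 60.8% of windows recur, and their mean FPKM were 932 to 6624. All 12 are cut from long precursor transcripts, and mt-Co2, mt-Atp6 and mt-Co3 lie beside mt-Co1 on the same strand. The chromosome 1 copies were listed at levels like those of the 5 low members, for example mt-Atp6 at 19.6, 25.9 and 36.5 in GFP libraries and Gm10925 at 23.7, 24.1 and 34.3. How the authors' aligner and counter treated reads with several equal matches is not given in the sources used here, and its part in these levels was not tested. mt-Atp8 was not analysed here.

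**Figure D3:**
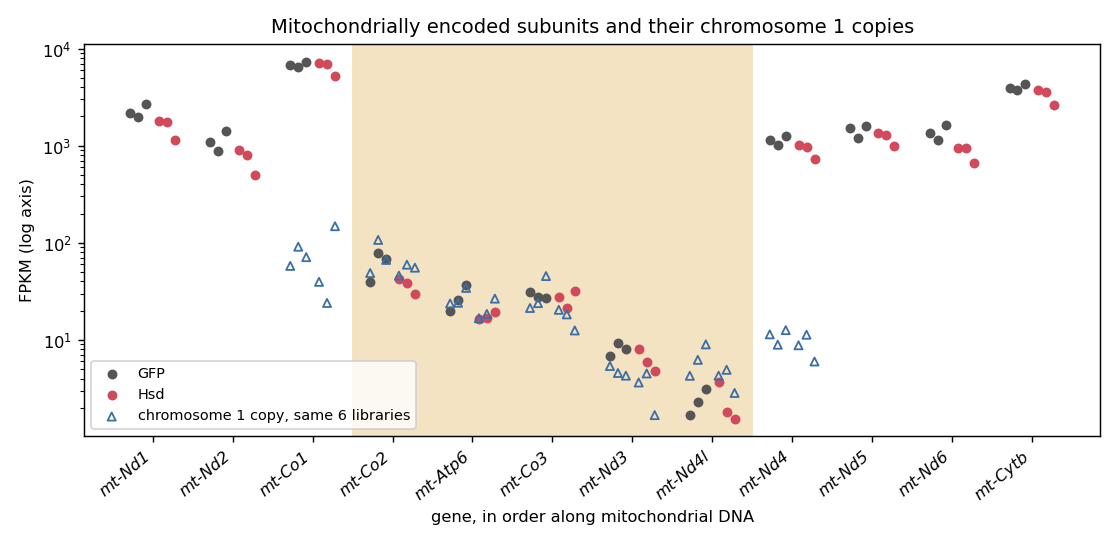
FPKM (log axis) of the 12 mitochondrially encoded members in order along mitochondrial DNA, in 3 GFP (grey) and 3 Hsd (red) libraries, with blue triangles for their chromosome 1 copies in the same 6 libraries. Shading marks the 5 members of which at least 97.6% of 100-base windows recur elsewhere. They sit at mean FPKM of 2.36 to 49.2, beside their copies, while the other 7 sit at 932 to 6624.

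Among the 7 members without a full copy, all differences were negative (median -0.349, range -0.71 to -0.10), and 1 passed. mt-Nd6, a membrane arm subunit of complex I and the only member encoded on the minus strand of mitochondrial DNA, fell. It had 1351, 1146 and 1650.4 in GFP and 944, 940.4 and 659 in Hsd libraries, so the groups did not overlap, with GFP 3 highest and Hsd 3 lowest. The log2 difference was -0.71 (SE 0.18, 95% interval -1.11 to -0.30, limma adjusted p = 0.0349). Only the fit without GFP 2 kept the call among the 6 that leave out a library, where the difference ran from -0.84 to -0.54 and the adjusted p from 0.0264 to 0.106. The gene (13552 to 14070) overlaps the end of mt-Nd5 on the other strand, and without the strand setting its reads cannot be told from those of the opposite transcript.

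The other complex I members of this set, all membrane arm subunits, did not pass. mt-Nd1 had 2184, 1982 and 2654 in GFP and 1777, 1769 and 1154 in Hsd libraries, without overlap (-0.55, SE 0.19, limma adjusted p = 0.101). mt-Nd2 had 1083, 874 and 1432 against 892, 809 and 500.2, where only Hsd 1 exceeded a GFP library (-0.64, SE 0.24, limma adjusted p = 0.137). mt-Nd4 had 1153, 1010.2 and 1268 against 1017, 963 and 728 (-0.35, limma adjusted p = 0.175), and Hsd 1 lay above GFP 2. For mt-Nd5, with 1512, 1206 and 1600.4 against 1339.6, 1296 and 998, the difference was smaller (-0.25, limma adjusted p = 0.357).

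The mitochondrial cores of complexes III and IV did not pass either. mt-Cytb, the subunit of complex III that holds both ubiquinone sites, had 3965, 3706 and 4317 in GFP and 3757, 3607 and 2638 in Hsd libraries (-0.28, limma adjusted p = 0.328). mt-Co1, the catalytic subunit of complex IV and the most abundant member, had 6809, 6383 and 7298 against 7141, 6863 and 5252 (-0.10, 95% interval -0.46 to 0.26). Hsd 3 was the lowest library for both genes.

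The 5 members with full copies also had negative differences, with a median of -0.343, and none passed (limma, 2 lower at an unadjusted p under 0.05). mt-Co2, which takes electrons from cytochrome c, had 39.7, 77.7 and 67.6 in GFP and 42.0, 38.6 and 29.6 in Hsd libraries, with GFP 1 among the Hsd values (-0.69, limma adjusted p = 0.0963). mt-Atp6, the proton channel subunit of ATP synthase, had 19.6, 25.9 and 36.5 against 16.4, 16.7 and 19.5, with groups that only just failed to overlap (-0.57, limma adjusted p = 0.0918). Without GFP 1 both genes passed (limma adjusted p = 0.00633 and 0.0146). This was the only 1 of the 6 fits that leave out a library in which either passed. The limma adjusted p in these fits reached 0.249 for mt-Co2 and 0.219 for mt-Atp6. With the reads of each gene and its copy summed, a setting chosen after the data were seen, both differences were smaller. They were -0.52 for mt-Co2 and -0.49 for mt-Atp6 (limma adjusted p = 0.183 and 0.129). mt-Co3, a structural core subunit of complex IV, had 28.6 ± 2.35 and 27.0 ± 5.35, and mt-Nd3, of complex I, 8.06 ± 1.26 and 6.22 ± 1.64 (SD, n = 3). mt-Nd4l, another small complex I subunit, rested on 10 to 27 reads a library and had 2.37 ± 0.710 and 2.35 ± 1.16 (SD, n = 3).

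Set side by side, the mitochondrial members had a median log2 difference of -0.346 with 12 of 12 negative, and the nuclear members -0.068 with 66 of 87 negative. No test of this contrast was made, since members of one genome share their libraries. Of the 7 mitochondrial members without a full copy, all were highest in GFP 3 and lowest in Hsd 3, whereas 59 of 88 nuclear members were highest in GFP 2. The median deviation of those 7 from their gene means was 0.206, 0.002 and 0.330 in GFP 1 to 3 and 0.012, -0.067 and -0.470 in Hsd 1 to 3. For nuclear members it was -0.021, 0.155 and -0.022 in GFP and -0.074, -0.070 and 0.027 in Hsd libraries. GFP 2 and Hsd 3, the 2 deepest libraries, were thus high for nuclear and low for mitochondrial members within their groups.

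The size of the lean in either genome changed with the libraries kept. Over the 6 fits that leave out a library, the mitochondrial median ran from -0.479 without Hsd 1 to -0.211 without Hsd 3. It was -0.404 without GFP 2 and -0.266 without both deep libraries. The nuclear median ran from -0.113 without GFP 1 to -0.023 without GFP 2, where complex I stood at 0.000 and complex IV at 0.025. It was -0.049 without both deep libraries. Correcting each library for GC content and exon length by loess brought the mitochondrial median to -0.189 and the nuclear one to -0.058. Without both deep libraries mt-Nd6 alone of the 4 called members passed.

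**Figure D4:**
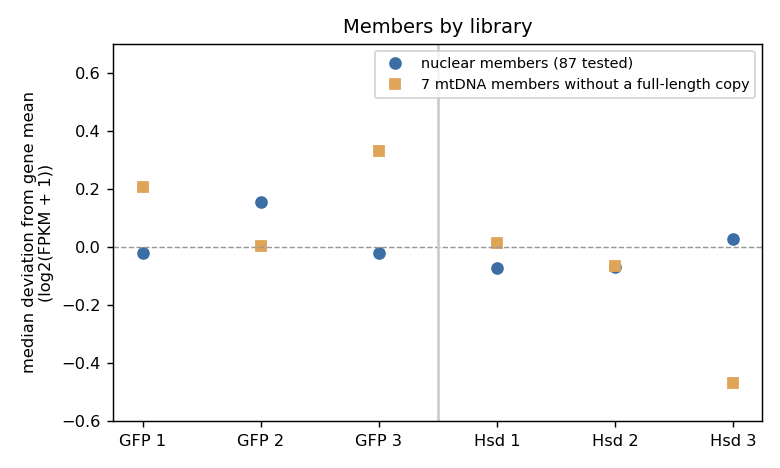
Median deviation from each gene's mean (log2(FPKM + 1)) in each library, for 87 nuclear members (blue circles) and the 7 mitochondrial members without a full copy (orange squares). Mitochondrial members are highest in GFP 3 (0.330) and lowest in Hsd 3 (-0.470), and nuclear members highest in GFP 2 (0.155).

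The sums per library show the same pattern on a linear scale. Mitochondrial members made up 4.48%, 3.98% and 5.36% of all FPKM in GFP 1 to 3 and 4.08%, 3.80% and 2.95% in Hsd 1 to 3. Their sum was 4.227, 3.243 and 4.470 times that of the nuclear members in GFP and 3.968, 3.808 and 2.587 times in Hsd libraries, and the groups overlapped. Since FPKM are shares of a whole, the 4 most abundant noncoding genes also enter them, at 24.1% to 29.9% of the sum in GFP and 28.7% to 32.5% in Hsd libraries, and their part in the members' differences was not tested.

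One nuclear member varied more than any other within groups. Ndufa12, an accessory subunit of complex I, had 15.9, 15.1 and 35.2 in GFP and 13, 29.1 and 33.3 in Hsd libraries, a coefficient of variation of 51.6% and 42.5%, against a median of 10.4% and 6.5% over nuclear members. The processed pseudogene Gm15920 on chromosome 5 (130188395 to 130188796, plus strand, GRCm38), 99.502% identical over 402 bases, was high where Ndufa12 was low, with 66.0, 81.6 and 14.4 in GFP and 65.1, 22.8 and 14.4 in Hsd libraries. In GFP 3, Hsd 2 and Hsd 3 Ndufa12 held 83.3% to 90.5% of the reads of both genes, and in GFP 1, GFP 2 and Hsd 1 it held 41.9% to 48.5%. The reads of both together ran only from 46.6 to 61.1 CPM (reads scaled to library depth). Taken over the length of Ndufa12, these summed reads gave an FPKM of 29.7 to 38.9. The split did not follow the groups, and its source was not tested.

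**Figure D5:**
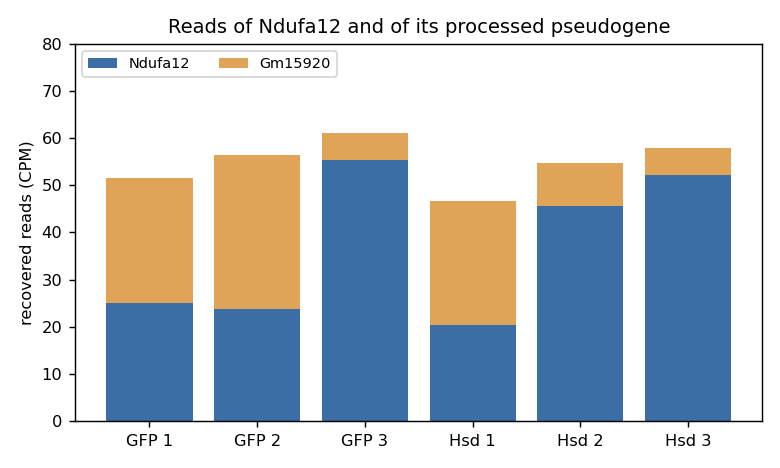
Recovered reads of Ndufa12 (blue) and of its processed pseudogene Gm15920 (orange), stacked, in CPM in each of the 6 libraries. The total runs from 46.6 to 61.1 CPM, while the share of Ndufa12 is 83.3% to 90.5% in GFP 3, Hsd 2 and Hsd 3 and 41.9% to 48.5% in the others.

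The promoters of 71 of the 88 nuclear members were matched in RefSeq (GRCm38.p6, 250 bases before to 50 after the start). Motifs of factors known to drive respiratory genes were searched on both strands, and shares are compared with all 27025 promoters of that length. Those promoters were not limited to genes expressed in these cells or matched for GC content. What part this has in the shares was not tested. The core of the NRF1 motif, GCATGCGC, was in 18.3% of members and 2.8% of all promoters. It was added after a search for the longer NRF1 palindrome that contains it, which was in 9.9% and 1.0%. The ETS motif CCGGAAG, bound by GABPA, was in 23.9% and 9.1%, the YY1 motif AAGATGGC in 12.7% and 2.9%, and the ESRRA motif TCAAGGTCA in 2.8% and 0.4%. The CCAAT box was in 43.7% and 37.9%, and TGTTCT, the conserved hexamer of glucocorticoid receptor elements, in 12.7% and 19.0%. A match describes letters only and is not evidence of binding. The promoter of Cycs, a textbook NRF1 target, is shown as the called member with matches (chr6:50566520-50566819, minus strand), with the NRF1 core and the CCAAT box in capitals, 60 and 31 bases before the start. That of Cox7a2 held none of these letters.
Cycs: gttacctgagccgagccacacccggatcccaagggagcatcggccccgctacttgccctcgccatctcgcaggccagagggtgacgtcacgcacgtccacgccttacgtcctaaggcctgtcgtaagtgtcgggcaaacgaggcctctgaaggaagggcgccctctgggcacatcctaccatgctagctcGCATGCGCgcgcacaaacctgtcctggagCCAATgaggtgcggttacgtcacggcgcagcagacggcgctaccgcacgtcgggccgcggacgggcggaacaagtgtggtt

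Few genes on lists that serve the chain passed the threshold, against 12.1% of all genes tested (25.6% at an unadjusted p under 0.05). The lists hold only 8 to 37 tested genes, and their shares were not tested against that of all genes. Of 42 further assembly factors 37 were tested, with 0 higher, 0 lower (limma, 2 lower at an unadjusted p under 0.05) and a median of -0.054. The most abundant were Uqcc2, for complex III, at 70.9 ± 8.76 and 68.6 ± 8.35, and Cox14, for complex IV, at 42.6 ± 10.6 and 47.1 ± 2.40 (SD, n = 3). Of 28 genes that copy, transcribe and process mitochondrial DNA and RNA 27 were tested, also with 0 in either direction (limma, 1 higher and 1 lower at an unadjusted p under 0.05) and a median of -0.034. They include Hsd17b10, a subunit of mitochondrial RNase P, at 92.5 ± 9.30 and 90.5 ± 2.46, and the exonuclease gene Pnpt1, at 21.7 ± 2.17 and 21.0 ± 2.80 (SD, n = 3).

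Of 14 nuclear regulators of mitochondrial genes 13 were tested and none passed (limma, 2 lower at an unadjusted p under 0.05, median -0.061), while Ppargc1a was not analysed here. Nfe2l2, the oxidative stress regulator, had 30.0 ± 0.705 and 26 ± 0.437 (SD, n = 3; limma adjusted p = 0.0653), and Myc 16.3 ± 1.05 and 19.1 ± 2.40 (limma adjusted p = 0.210). Of 22 genes of the TCA cycle and of other electron entry points 1 fell, 0 rose and the median was -0.018. The lower one, Gpd2, the mitochondrial glycerol phosphate dehydrogenase that feeds ubiquinone, fell from 12.5 ± 0.757 to 9.73 ± 0.580 (log2 difference -0.33, limma adjusted p = 0.0198). Its call ended without GFP 3, Hsd 1 or Hsd 3 (adjusted p up to 0.0842). Pdha1, the pyruvate dehydrogenase subunit, had 121 ± 5.56 and 145 ± 6.46 (0.25, limma adjusted p = 0.0511), and citrate synthase, Cs, 104 ± 2.27 and 97 ± 2.28 (-0.09, limma adjusted p = 0.403).

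Of 13 genes for ATP export, phosphate entry, uncoupling and ATP synthase inhibition 8 were tested, and Ucp1, Ucp2, Ucp3, Slc25a31 and Ckmt2 were not analysed here. Ckmt1, the mitochondrial creatine kinase, fell from 1.93 ± 0.161 to 1.08 ± 0.196 (SD, n = 3; log2 difference -0.50, limma adjusted p = 0.0124), and 7 did not pass. Its call ended without GFP 3 (limma adjusted p = 0.0510). This 1 gene was 12.5% of the 8 tested, close to the 12.1% called among all genes. The ADP/ATP carriers Slc25a5 and Slc25a4 had 139.8 ± 13.4 and 142 ± 5.46, and 107 ± 11.6 and 100 ± 7.32 (SD, n = 3).

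The authors' deposited table has 7 lower members and 0 higher ones past an adjusted p of 0.05, which is 7.0% of the 100 against 13.1% of all genes there. The 7 in that table are Cycs, Cox7a2, mt-Atp6, mt-Nd6, Atp5j, mt-Nd4 and Atp5o, with log2 fold changes from -0.71 to -0.22. Cycs, Cox7a2 and mt-Nd6 were lower by both tests, and Cox6a2 was called here alone.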

How the data were processed

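RNA of MC3T3-E1 cells (3 GFP and 3 Hsd libraries) was sequenced after stranded library preparation, per the labels. Reads were handled with cutadapt 2.5, HISAT2 2.1.0 and featureCounts 1.6.3 on mm10, per the submitters' processing notes. Annotation, strand setting and the treatment of reads with several matches were not stated in the sources used here. The authors deposited FPKM per library, with a log2 fold change, p-value and adjusted p-value per gene from a test whose tool is not named. A further table of the authors' selected genes was not used, and 0 columns of per-sample values were left unused.

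Reads per library were recovered from the FPKM and GENCODE M21 exon lengths, and 93.8% to 95.0% of values up to 1000 reads were whole within 0.05. FPKM are not counts, so limma 3.58.1 (R 4.3.3, lmFit and eBayes with a trend) was fitted to log2(FPKM + 1) of genes at a mean FPKM of 1 or more. Differences are Hsd minus GFP, two-sided, adjusted by Benjamini-Hochberg over all 13120 genes (threshold 0.05), and understate changes of low genes. The fit was also run on simulated libraries with known changes. Their added spread was below the median spread of the members, and they held no effect shared by the genes of a library. The run therefore does not show how the fit behaves with the spread and library shifts seen here. Near-identical copies were sought with blastn 2.17.0 (at least 97% identity over 75 bases) among GENCODE transcripts, and windows of 100 bases were matched exactly.

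Named are Hsd11b1, all mitochondrial, complex II, cytochrome c and c1 members, members past the threshold, those with the 3 highest levels and 3 smallest p per complex, isoform sets, and per pathway list the genes past the threshold and the 2 most abundant. Other genes (Ndufa12, Ndufaf and core complex I members and the copies) were named after their values were seen. Members and lists were chosen with earlier results of these data known. Alternatives were pseudocounts, filters, scalings, GC and length correction, weights, a replicate block, left-out libraries and summed copies.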

Additional observations from a re-analysis of the deposited data

How the results depend on the processing

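No result reversed its direction where it had been called. Member counts, given as higher and lower, were 1 and 3 in the reported fit. With arrayWeights they were 2 and 10 (nuclear 2 and 5, mitochondrial 0 and 5, with 3 of the 7 without a full copy, complex III 1 lower, complex V 2 lower). Without the 2 deepest libraries they were 0 and 1 (nuclear 0 lower, complex IV 0 and 0). A mean FPKM of at least 5 removed Cox6a2 from the test (0 higher among all, nuclear and complex IV members), and rescaling to nuclear protein-coding genes gave 5 lower (4 nuclear). Complex V had 1 lower member with a pseudocount of 5, a mean of at least 5 or loess, and 2 with quantile normalization or rescaling. Mitochondrial lower members numbered 0 with no filter and with quantile normalization, with or without full copies, and nuclear ones 1 without a trend. With 1 library left out, 0 to 2 members were higher and 0 to 2 lower (nuclear 0 to 2 and 0 to 2, mitochondrial 0 to 2 lower, without a full copy 0 to 1, complex I 0 to 1 higher, complex IV 0 to 1 and 0 to 1).

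Among pathway lists, arrayWeights gave 1 lower assembly factor, 1 higher machinery gene, 3 lower regulators and 1 higher TCA gene. Loess gave 1 higher assembly factor, 1 higher machinery gene, 2 lower regulators, 1 higher TCA gene and a TCA median of 0.008. A mean of at least 5 or median-of-ratios scaling gave 1 higher TCA gene, and the former 0 lower ATP export genes. Without the 2 deepest libraries, 0 TCA and 0 ATP export genes were lower, with medians of 0.016 for TCA and -0.004 for machinery genes. Leaving out 1 library gave medians of -0.049 to 0.013 (machinery), -0.095 to 0.001 (regulators) and -0.048 to 0.018 (TCA), 0 to 1 TCA genes in either direction and 0 to 1 lower ATP export genes. Of all genes, 1358 were higher and 1215 lower with loess, 1357 and 1403 with arrayWeights, and 478 lower without the 2 deepest. Leaving out 1 library gave 483 to 719 and 412 to 618. The cause of these shifts was not tested, beyond the fewer samples or genes that some settings hold.

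With the replicate number as a block, Cycs (limma adjusted p = 0.0551) and mt-Nd6 (0.0585) did not pass and mt-Atp6 did (0.0204), so 1 nuclear member and 0 mitochondrial members without a full copy were lower. Deviations of same-numbered libraries correlated at 0.209, -0.294 and -0.027, so the numbers were not taken as pairs. Over all alternatives Cox6a2 passed in 14 of 18, Cox7a2 in 14 of 19, mt-Nd6 in 11 of 19 and Cycs in 8 of 19. Depth limits mt-Nd4l, Cox6a2 and Ndufa4l2 most.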

Other observations

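Mitochondrial DNA also encodes ribosomal and transfer RNAs, which were not members. Of the 21 genes of mitochondrial DNA that were listed and tested, all had negative log2 differences, against 53.3% of all genes tested. The 14 on the plus strand included 0 past the threshold (limma, median -0.40). Of the 7 on the minus strand (median -0.69) 3 fell, which were mt-Nd6 and the transfer RNA genes mt-Ta and mt-Tp. Among all genes tested 5.84% were lower. Genes of one genome share their libraries, so these counts are not independent observations. Fits that leave out a library are not given here for mt-Ta and mt-Tp. mt-Tp, for proline, had 104, 108 and 161 in GFP and 49.0, 55.2 and 38.2 in Hsd libraries, a clear gap between the groups (log2 difference -1.36, SE 0.18, limma adjusted p = 0.00207). mt-Ta, for alanine, had 98.9, 95 and 104 against 63.4, 61.4 and 48.4, again without overlap (-0.78, SE 0.10, limma adjusted p = 0.00205). Other minus strand genes overlapped, such as mt-Ty with 104, 97.8 and 98.2 against 139.5, 99.2 and 64.4 (-0.05, limma adjusted p = 0.922). The values of mt-Tp rest on 60 to 254 reads a library. The ribosomal RNAs mt-Rnr1 and mt-Rnr2 had differences of -0.52 and -0.48 and did not pass (limma adjusted p = 0.0815 and 0.0862). The strands were compared after their values were seen, the difference between them was not tested, and the strand setting of the counting is not given in the sources used here.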
